A study of Arabidopsis thaliana with 26 samples.

Results

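In Arabidopsis thaliana seedlings, 57 genes were at or near silence without 5-azacytidine and gave measurable RNA in every replicate grown on it. They are all of the 33977 gene identifiers in the count files that had at most 3 read counts in each of the 5 untreated biological replicates and at least 10 counts in each of the 5 treated ones, and they are called members below. The members were thus chosen by the difference between treated and untreated plants, and that difference is given only as a description. Calls for it are printed further below beside the share over all genes, and nothing is read from them. Of the 10180 identifiers that met the ceiling in the untreated plants, the members made up 0.560%.

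RNA was sequenced from whole seedlings with roots, 10 days old, of the Columbia-0 accession. The plants were wild type or of an msh1 memory line, a line derived from plants in which MSH1, which encodes an organelle protein that protects plastid and mitochondrial DNA from recombination, was suppressed. Seeds were sown on agar medium that held 0 or 100 µM 5-azacytidine, so the treated plants germinated and grew on the drug. There were 3 untreated and 3 treated wild-type replicates, and 2 untreated and 2 treated memory-line replicates, each sequenced as 2 or 3 technical libraries from the same RNA. Whether the replicates came from separate cultures, and how many plants or founder lines each holds, is not in the labels, so a p-value below measures only the spread between these samples.

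5-Azacytidine is a cytidine analogue that is built into nucleic acids and traps DNA methyltransferases, so that methylation is lost as cells divide. In Arabidopsis, dense methylation of cytosines in the CG, CHG and CHH contexts, together with methylation of histone H3 at lysine 9, keeps transposons and repeats silent, above all in the heterochromatin around the centromeres. Methylation in the CG context is copied at replication by the methyltransferase MET1, and plants with less of it express many transposons and some genes that lie in or beside silenced repeats. DNA methylation itself was not measured here.

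Each replicate had 11412839 to 13544859 counts in genes. About 48.3% to 49.3% of the uniquely aligned reads were assigned to no gene, and 0.265% to 0.771% were classed as ambiguous. How the counting treated strand is not given in the sources used here. Whether reads opposite in strand to a gene are among those assigned to no gene was not tested. The share of reads that aligned to more than 1 place was 25.7% in untreated memory-line replicate 2 against 6.49% to 13.6% in the others. That replicate also held 496 counts over 23 seed markers, among them 248 of CRA1 and 147 of CRU3, which encode seed storage proteins, against 31 to 66 counts over the list in the other 9 replicates. Transcripts of MSH1 numbered 114, 110 and 191 counts in untreated and 164, 263 and 174 in treated wild-type plants, and 186 and 113 in untreated and 155 and 201 in treated plants of the memory line. The 4 groups overlapped.

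Over the 57 members together, the untreated replicates held 81 counts and the treated replicates 21005. The untreated wild-type replicates had 18, 8 and 10 counts over all members, and the untreated memory-line replicates had 32 and 13. The treated wild-type replicates had 5705, 3668 and 4768, and the treated memory-line replicates had 3198 and 3666. Untreated memory-line replicate 1 was the highest of the untreated samples, at a level far under that of any treated sample. In whole seedlings, a higher level can come from more cells that express a gene or from more RNA per cell, and these cannot be told apart.

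The rule used the sums of the technical libraries, so their values are parts of the same measure. Of the 57 members, 56 had a count in each of the 14 treated libraries, while 1 to 11 members had a count in any of the 12 untreated libraries. In 31 members all 5 untreated replicates were at 0. For these, the mean level on azacytidine was at least 20.5-fold (AT2G05752) to at least 225-fold (AT3G44265) higher, with a median bound of 65.1-fold, taking the floor as 3 counts over the untreated replicates together. The other 26 members had between 1 and 3 counts in at least 1 untreated replicate.

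**Figure D1:**
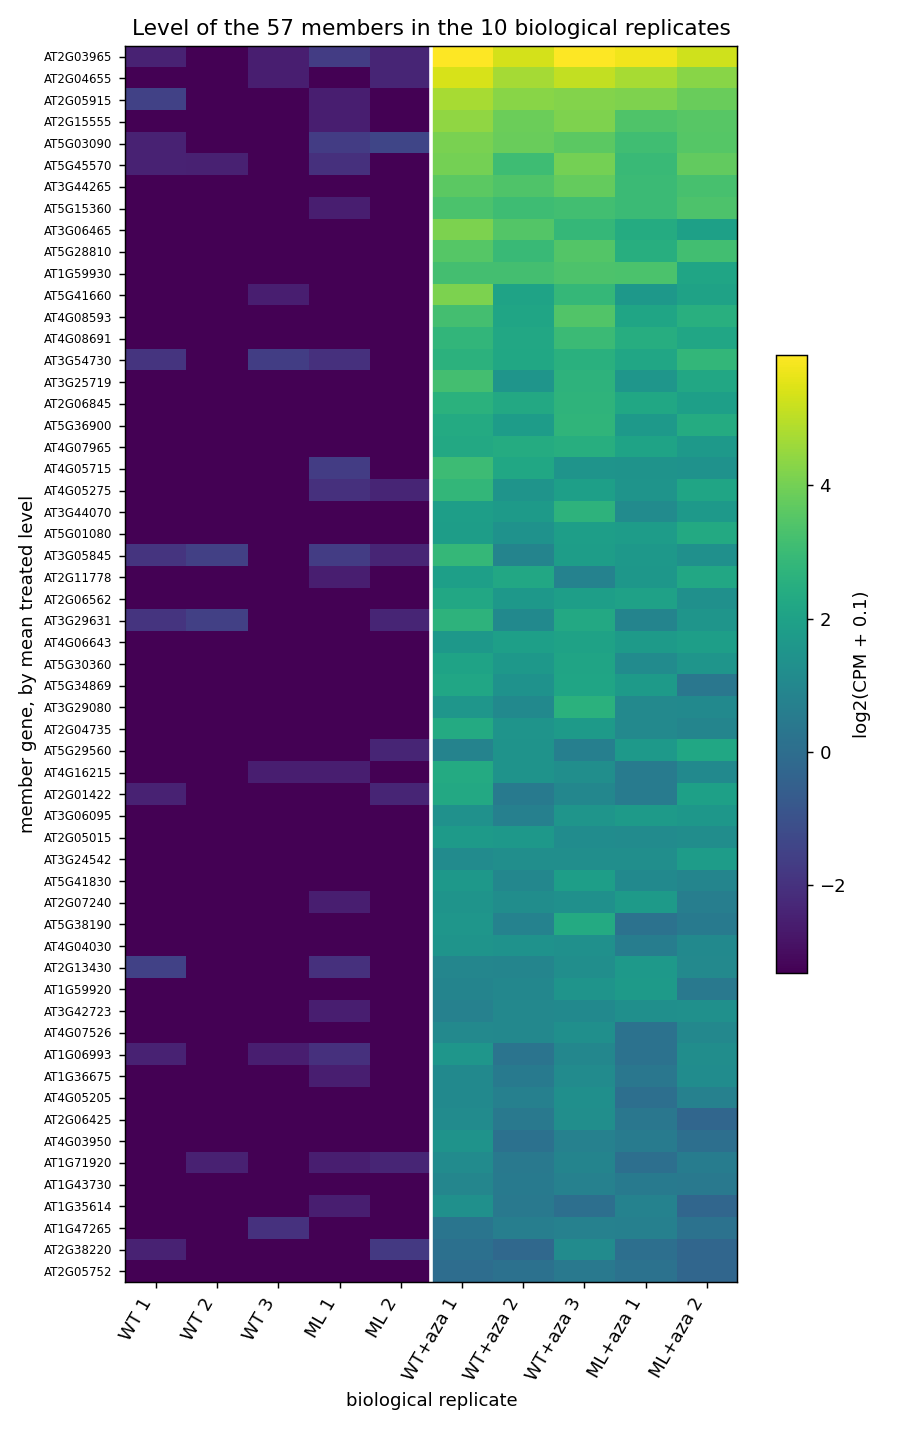
Level of each of the 57 members (vertical axis, ordered by mean level on azacytidine) in the 10 biological replicates (horizontal axis), coloured by log2(CPM + 0.1), where CPM is a gene's count scaled to a library of 1000000 gene counts. WT is wild type, ML the memory line and aza 5-azacytidine, and the white line separates the 5 untreated from the 5 treated replicates. The untreated columns are dark, with scattered counts of 1 to 3 in 26 members. The treated columns are filled in every row, which is what the rule selects.

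Most members stayed low even on azacytidine. The mean level over the 5 treated replicates ran from 0.983 to 51.4 CPM, with a median of 3.23 CPM. It was above 5 CPM in 17 members and above 10 CPM in 7. The 2 highest members held 24.8% of all member counts in treated plants and the 12 highest held 59.4%, so the summed level rests on a few genes.

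By the products the reference annotation gives, 13 members are noncoding RNAs, 20 are uncharacterized proteins, 5 are related to beta-galactosidases, 3 are of the Ulp1 protease type, 2 are transposon proteins and 14 have other names. The reference gives a symbol to 3 of the 57, which are HISN6B, APD3 and OFP9. The 2 transposon proteins are AT1G43730, related to reverse transcriptase, the enzyme with which retrotransposons copy RNA into DNA, and AT2G06425, an En/Spm-type transposase, the enzyme that moves a DNA transposon. They were among the low members, with means of 1.44 CPM for AT1G43730 and 1.51 CPM for AT2G06425 in the treated plants. Transposable elements are not marked in the annotation used here, so how many members lie in transposons was not tested.

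The highest 2 members lie on top of each other on chromosome 2. AT2G03965 (chr2:1251510-1252989, TAIR10.1, plus strand), an uncharacterized protein gene, had 1, 0, 1, 3 and 1 counts in the untreated replicates. It had 822, 523 and 783 counts in treated wild type and 635 and 533 in the treated memory line. AT2G04655 (chr2:1251862-1252530, minus strand), a noncoding RNA inside it, went from 0, 0, 1, 0 and 1 counts to 560, 332 and 442 in wild type and 314 and 269 in the memory line. Of the exon bases of AT2G04655, 81.8% lie under exons of AT2G03965 on the opposite strand. The library kit does not mark the strand, so the RNA of both genes cannot be told apart where they overlap.

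Both have a related locus on chromosome 4 that is also an overlapping pair of members. AT4G06643 (chr4:3758957-3759880, plus strand), an uncharacterized protein gene, matched AT2G03965 over 99.2% of its exon bases at 87.7% identity. It was at 0 in every untreated replicate and had 40, 47 and 51 counts in treated wild type and 38 and 49 in the treated memory line. Its opposite-strand noncoding partner AT4G05205 (chr4:3758734-3759286) went from 0 to 27, 20 and 30 counts and to 11 and 22 counts. The chromosome 4 pair was thus far lower than its chromosome 2 relatives in every treated replicate, as AT4G06643 had at most 51 counts where AT2G03965 had at least 523.

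Other named families came in copies as well. AT1G59920 and AT1G59930 are MADS-box genes, members of a large family of transcription factors, and stand 1081 bases apart on chromosome 1 (chr1:22059424-22059842 and chr1:22060924-22061516, minus strand). Both were at 0 in all untreated replicates. AT1G59930 had 118, 117 and 130 counts in treated wild type and 116 and 59 in the treated memory line, and AT1G59920 had 23, 24 and 34, and 38 and 17. The exons of AT1G59920 match AT1G59930 at 98.8% identity, so reads could align to both. Reads that did not align uniquely have a class of their own. How the counting treated reads of this pair is not otherwise given in the sources used here. A further copy, AT5G35120, is no member and had 0 counts untreated and 10, 2, 9, 1 and 6 in the treated replicates.

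The Ulp1 protease type is named for enzymes that cut the small modifier SUMO from proteins, and genes of this type in Arabidopsis have also been found inside Mutator-like transposons. AT5G45570 (chr5:18471498-18475574, plus strand) had 1, 1, 0, 2 and 0 counts untreated, 211, 107 and 203 in treated wild type, and 90 and 178 in the treated memory line. AT5G28810 (chr5:10823356-10826646, plus strand) was at 0 in all 5 untreated replicates and had 148, 99 and 142, and 65 and 121. AT2G07240 (chr2:3007102-3012333, minus strand), annotated as a cysteine-type peptidase, was lower, with 36, 29, 31, 38 and 20 counts in the treated replicates. AT5G45570 has near-identical relatives that are no members: AT5G28235, at 99.5% identity over 92.0% of its exons, had 0 counts untreated and 31, 28, 22, 4 and 8 on azacytidine. Of the 7 genes whose product is named a Ulp1 protease family protein, all 7 were at 3 counts or fewer in the untreated plants. Of these, 2 are members. Among those that are no members, 4 were called higher on azacytidine in wild type by the edgeR test used below, where 3.02% of all genes were.

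AT3G54730 (chr3:20259003-20260458, plus strand) and OFP9 (AT4G04030, chr4:1936653-1937972, minus strand) belong to the OVATE proteins, which repress transcription in plants. AT3G54730 had 2, 0, 3, 2 and 0 counts untreated, then 81, 58 and 74 in treated wild type and 52 and 96 in the treated memory line. OFP9 had 0 counts in each untreated replicate, then 36, 33 and 31, and 17 and 28. Their exons are 99.3% identical over 90.3% of AT3G54730, so the values of this pair are uncertain one against the other. Of 22 genes that carry this product name, 4 were at 3 counts or fewer in untreated plants.

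The 250 bases that precede 6 of these copied genes are printed to show how far copies that were both members share the sequence before their start. They are from the TAIR10.1 reference, 5′ to 3′ on the gene's own strand, and end at the base before the gene model's first base. CG dinucleotides, the sites MET1 maintains, are in capitals. The windows lie at chr1:22059843-22060092 and chr1:22061517-22061766 for the MADS-box pair, chr2:1251260-1251509 for AT2G03965, chr4:3758707-3758956 for AT4G06643, chr5:10823106-10823355 for AT5G28810 and chr5:18471248-18471497 for AT5G45570.
AT1G59920: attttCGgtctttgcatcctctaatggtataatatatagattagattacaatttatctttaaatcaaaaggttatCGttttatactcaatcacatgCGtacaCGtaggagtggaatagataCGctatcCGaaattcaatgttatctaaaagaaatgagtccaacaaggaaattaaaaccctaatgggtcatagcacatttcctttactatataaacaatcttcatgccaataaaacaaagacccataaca
AT1G59930: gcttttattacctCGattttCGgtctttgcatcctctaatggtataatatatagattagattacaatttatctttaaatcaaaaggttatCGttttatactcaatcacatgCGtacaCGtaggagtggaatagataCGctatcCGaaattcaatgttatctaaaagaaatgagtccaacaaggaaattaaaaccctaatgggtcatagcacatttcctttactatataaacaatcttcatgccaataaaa
AT2G03965: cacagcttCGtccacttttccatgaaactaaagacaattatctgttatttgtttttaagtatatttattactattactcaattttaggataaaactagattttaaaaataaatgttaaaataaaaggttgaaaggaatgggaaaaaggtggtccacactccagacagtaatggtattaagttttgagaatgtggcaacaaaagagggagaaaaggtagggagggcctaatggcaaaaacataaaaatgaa
AT4G06643: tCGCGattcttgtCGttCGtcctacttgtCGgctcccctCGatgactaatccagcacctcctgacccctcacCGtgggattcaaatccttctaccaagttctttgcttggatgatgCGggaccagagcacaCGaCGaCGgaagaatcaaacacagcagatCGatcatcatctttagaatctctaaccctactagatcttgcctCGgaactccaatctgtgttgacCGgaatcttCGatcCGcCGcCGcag
AT5G28810: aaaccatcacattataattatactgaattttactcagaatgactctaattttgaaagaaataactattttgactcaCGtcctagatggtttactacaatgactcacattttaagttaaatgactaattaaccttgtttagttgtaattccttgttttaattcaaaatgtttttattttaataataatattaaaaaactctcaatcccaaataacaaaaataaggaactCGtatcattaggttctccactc
AT5G45570: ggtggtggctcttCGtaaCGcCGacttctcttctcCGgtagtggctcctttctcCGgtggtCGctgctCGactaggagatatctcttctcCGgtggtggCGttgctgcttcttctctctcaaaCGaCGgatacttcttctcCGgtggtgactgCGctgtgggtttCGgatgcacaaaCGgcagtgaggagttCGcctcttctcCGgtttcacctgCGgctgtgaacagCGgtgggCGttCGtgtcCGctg

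In the MADS-box pair the gene model starts 20 bases before the coding sequence in AT1G59920 and 35 in AT1G59930, so the windows are offset. The stretch that both windows hold is the same in every base. The identity of 88.7% over the windows comes from their unmatched ends. There were 6 CG dinucleotides before AT1G59920 and 7 before AT1G59930, and the additional CG lies outside the shared stretch. In the other pairs the model starts lie farther apart. They are 435 and 0 bases before the coding sequence in AT2G03965 and AT4G06643. In AT5G28810 and AT5G45570 they are 1475 and 803 bases before it. The windows of these pairs thus do not correspond base for base. AT2G03965 and AT4G06643 were 45.1% identical there, with 1 and 18 CG dinucleotides, and AT5G28810 and AT5G45570 were 44.9% identical, with 2 and 22. Identity is counted over an end-to-end alignment with its gaps.

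In all 57 members the window held at least 1 CG dinucleotide, and the range was 1 to 22 with a median of 5. Over all 32548 genes with a gene model the median was also 5, and 96.2% of windows held a CG, so the median before the start was the same. Within exons, members had a median of 36.9 CG dinucleotides per kb against 29.3 over all genes and 30.5 over the other genes with at most 3 counts in the untreated plants. The GC content of their exons was also higher, at a median of 43.6% against 41.0% and 40.6%. The ratio of observed to expected CG, which takes the base composition out, was 0.754 in members, 0.718 over all genes and 0.765 in the other untreated-silent genes.

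The remaining members among the 12 with the highest levels are mostly of unknown function. AT2G05915 (chr2:2263816-2264265), an uncharacterized protein gene, had 3, 0, 0, 1 and 0 counts untreated, 356, 257 and 239 in treated wild type, and 209 and 194 in the treated memory line. It lies entirely under AT2G05914, a noncoding RNA of the opposite strand that is no member because it had 6 counts in an untreated replicate. AT2G05914 was higher still on azacytidine, with 808, 509 and 641 counts in wild type and 698 and 453 in the memory line. Reads of the pair cannot be assigned to a strand.

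AT2G15555 (chr2:6785904-6786976, minus strand), a noncoding RNA, had a single count among the untreated replicates and 281, 188, 225, 122 and 160 in the treated ones. AT5G03090 (chr5:725281-725962), annotated as a Mto 1 responding down protein, had 1, 0, 0, 3 and 3 counts untreated and 223, 182, 155, 101 and 155 treated. In both genes all 5 treated replicates exceeded 100 counts. AT5G15360, an uncharacterized protein gene (chr5:4987437-4989182), had 0, 0, 0, 1 and 0 counts untreated and 133, 108, 113, 93 and 140 treated.

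AT3G06465 (chr3:14791174-14791781), a noncoding RNA, was at 0 in all untreated replicates and had 228, 142 and 92 counts in treated wild type and 61 and 52 in the treated memory line. AT5G41660 (chr5:16656708-16658405), an uncharacterized protein gene, had 1 untreated count, then 228, 53 and 92, and 35 and 54. Its treated wild-type replicates spread more than 4-fold, and replicate 1 alone held most of their counts. AT3G44265 (chr3:15955138-15956246, minus strand) had no untreated count, then 162, 135 and 173, and 94 and 128. It is the highest of the 5 members related to beta-galactosidases, enzymes that remove terminal galactose from sugar chains and cell wall polymers.

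The other 4 of that family were AT3G44070, AT2G06845, AT5G01080 and AT3G24542, each at 0 in all untreated replicates and between 25 and 82 counts in each treated one. Among 36 genes in the files whose product names a beta-galactosidase or glycosyl hydrolase family 35 protein, 16 were at 3 counts or fewer in the untreated plants. Most of the family is thus not among the members. AT3G24542 shares its sequence with the noncoding member AT2G04735, whose exons it matches in full at 94.8% identity. AT2G04735 had 67, 35 and 41 counts in treated wild type and 23 and 24 in the treated memory line.

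**Figure D2:**
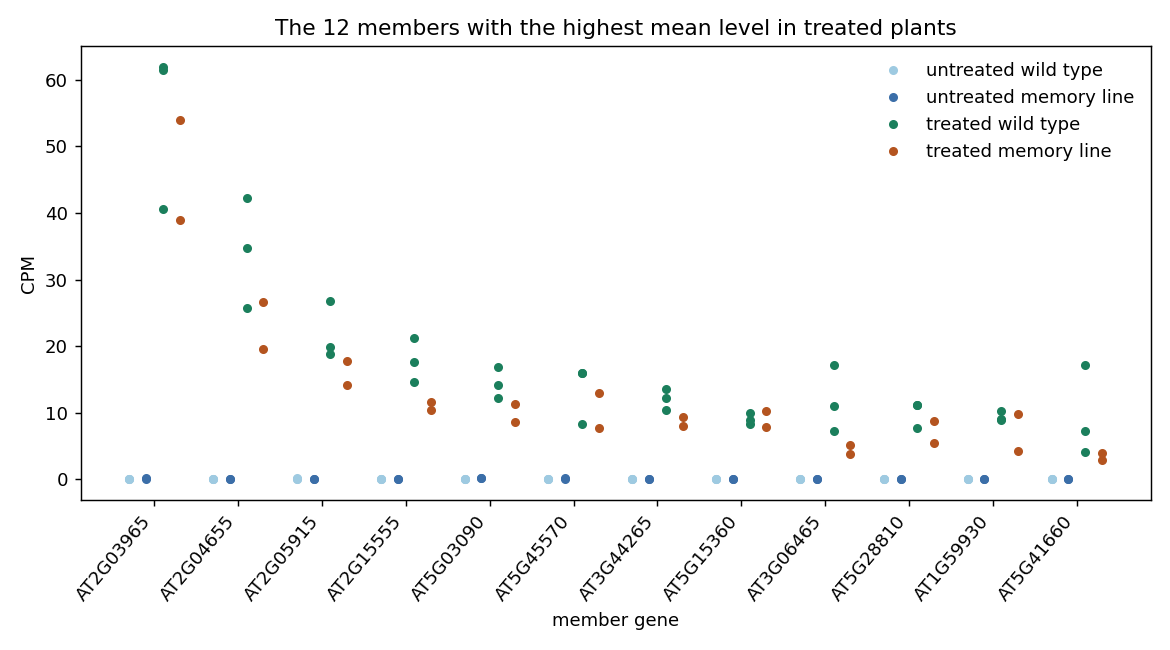
Level in CPM (vertical axis, linear) of the 12 members with the highest mean on azacytidine (horizontal axis), with 1 point for each biological replicate. Untreated replicates of both genotypes lie at the zero line. Treated wild-type points lie above both treated memory-line points in AT2G05915, AT2G15555, AT5G03090, AT3G44265, AT3G06465 and AT5G41660, and overlap with them in the other 6.

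Compared per length of exon, the order changed. AT2G04655 led with 61.0 CPM per kb of exon, followed by AT2G05915 with 55.5, AT5G03090 with 42.8 and AT2G03965 with 36.9. The median member had 4.06 CPM per kb and the lowest, APD3, had 0.641. APD3 (AT2G38220, chr2:16007891-16010932) is a RING/U-box protein gene of a family that acts in pollen development. It had 1, 0, 0, 0 and 2 counts untreated and 13, 10, 27, 11 and 10 on azacytidine, just above the floor of the rule. Its copy APD4 had 0 counts untreated and 3, 6, 8, 1 and 5 treated.

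HISN6B (AT1G71920, chr1:27066948-27069166) encodes a histidinol-phosphate aminotransferase of histidine synthesis. It had 0, 1, 0, 1 and 1 counts untreated and 28, 16, 22, 11 and 19 on azacytidine. Its copy HPA1, which encodes the same enzyme and is 98.1% identical over the whole of its exons, had 330, 297, 301, 350 and 238 counts untreated and 314, 230, 303, 297 and 327 treated. HPA1 thus overlapped between treated and untreated plants, while for HISN6B the rule fixed that the groups do not. With so alike a copy, the count of HISN6B is uncertain, and its untreated replicates had at most 1 count each beside 238 or more of HPA1.

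At the edges of the rule, 8 members had 3 counts in an untreated replicate, among them AT2G13430 and AT4G05715, and 9 had a lowest treated count of 10 to 12, among them AT2G05752 with 12, 13, 16, 12 and 10. Just outside it, AT1G26558 and AT3G30770 had 4 counts in an untreated replicate. AT3G30770 had 32, 44, 45, 49 and 49 counts on azacytidine. A further 6 genes reached only 8 or 9 counts in a treated replicate, among them AT1G36240 with 47, 37, 46, 8 and 28 counts after 0 in all untreated replicates.

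The members lay close to the centromeres. Within 3 Mb of a centromere were 40 of the 57, or 70.2%, against 12.1% of the 32548 genes with a position and 21.4% of the 8707 other positioned genes at 3 counts or fewer in all untreated replicates. The median distance was 2.06 Mb for members, 7.85 Mb for all genes and 6.40 Mb for the other untreated-silent genes. Within 2 Mb were 49.1% of members and 5.24% of all genes, and within 4 Mb 75.4% and 20.6%. Centromere positions are approximate, and these shares are descriptions with no test.

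Chromosome 2 held 15 members, of which 12 were within 3 Mb of its centromere, and chromosome 4 held 11, of which 10 were. Chromosome 1, with 26.6% of all genes, held 8. Chromosome 3 had 8 of 11 within 3 Mb and chromosome 5 had 5 of 12. By kind, 11 of 13 noncoding RNAs, 16 of 20 uncharacterized proteins and both transposon proteins were within 3 Mb, against 6 of the 14 other named proteins. The members farthest out were APD3 at 12.4 Mb, HISN6B at 11.97 Mb, AT5G01080 at 11.67 Mb and AT5G03090 at 10.97 Mb.

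**Figure D3:**
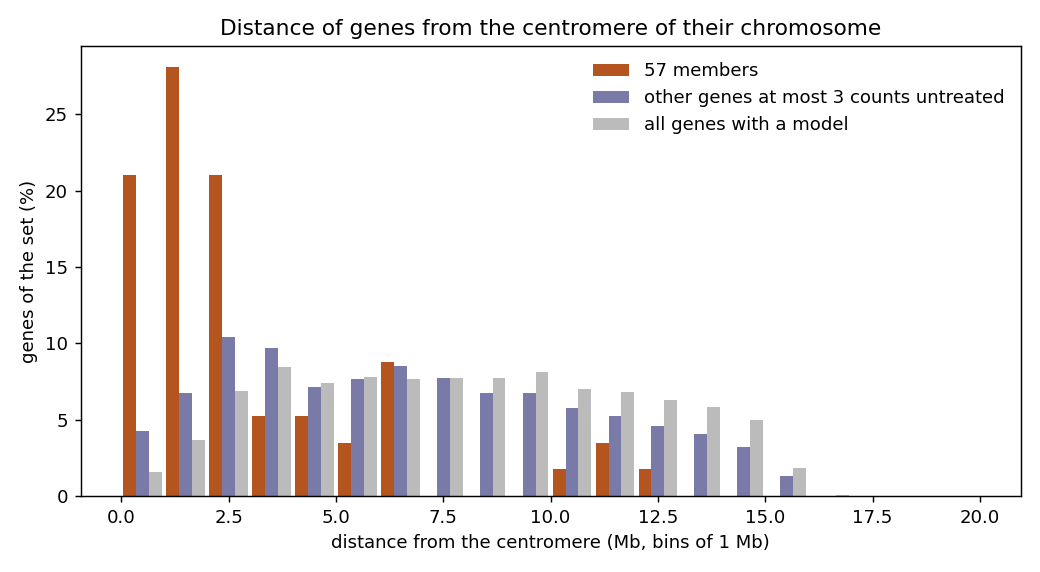
Distance from the centromere of the same chromosome in bins of 1 Mb (horizontal axis) against the share of each gene set in the bin (vertical axis, percent). Bars show the 57 members, the other genes with at most 3 counts in every untreated replicate, and all genes with a model. The first 3 bins hold 70.2% of the members, 21.4% of the other untreated-silent genes and 12.1% of all genes.

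Of the 57 members, 18 lay within 50 kb of another member, as 9 pairs. In 4 of the pairs the genes overlap on opposite strands: the pairs on chromosomes 2 and 4 described above, AT2G05015 with AT2G06845, and AT3G29631 with AT3G05845. AT2G06845 encodes a protein related to beta-galactosidase and had 0 counts untreated and 79, 61, 82, 53 and 50 treated, and its noncoding partner AT2G05015 had 43, 39, 28, 25 and 31. AT3G29631, annotated as a nuclease, had 2, 3, 0, 0 and 1 counts untreated and 84, 26, 60, 20 and 38 treated, and AT3G05845 had 2, 3, 0, 3 and 1, and 95, 22, 44, 35 and 33. In each of the 4 the strands cannot be told apart, so the genes of a pair may not be separate transcripts. The other 5 pairs are AT1G36675 with AT1G06993, the MADS-box pair, AT2G06425 with AT2G06562, AT3G06465 with AT3G42723, and AT4G05275 with AT4G07965.

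Sequence copies were common among members. A copy elsewhere in the genome, meaning a match of at least 80% identity over at least 50% of the exon bases, was found for 29 of 57 members, or 50.9%, against 15.7% of all genes and 31.0% of the other untreated-silent genes. A near-identical copy, at 95% or more over at least 80% of the exon bases, was found for 9 members, or 15.8%, against 4.31% and 13.3%. In all, 12 members were copies of another member, in 5 groups: the MADS-box, Ulp1 and OVATE pairs, AT2G04735 with AT3G24542, and the 4 genes of the overlapping pairs on chromosomes 2 and 4. How the authors' counting treated reads that align to several places is not given in the sources used here, apart from the class of reads that did not align uniquely.

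The rule did not select on the difference between the memory line and wild type on azacytidine, since both genotypes had to pass the same floor. It did use these treated counts, with the floor set in 3 wild-type and 2 memory-line replicates. This comparison is thus not wholly free of the rule. The summed level of the 57 members was 430, 284 and 374 CPM in treated wild type, 363 ± 73.6 CPM (SD, n = 3), and 272 and 267 CPM in the treated memory line, 270 ± 3.15 CPM (SD, n = 2). Both memory-line values lay below all wild-type values, the nearest of which was treated wild-type replicate 2. In edgeR's quasi-likelihood test, none of the 57 members differed between the treated genotypes with a false discovery rate under 0.05 (Benjamini-Hochberg adjusted p, 22031 genes), where 0.0454% of all genes tested were called. The lowest adjusted p among the members was 0.200. DESeq2 also called no member, where it called 1.29% of all genes.

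The direction of the fitted differences leaned one way. The memory line was below wild type in 48 members and above it in 9, while 48.7% of all genes tested had a fitted value below 0. The median log2 difference, memory line minus wild type, was -0.47 over the members and 0.01 over all genes tested. The quartiles of the members were -0.63 and -0.13, and those of all genes -0.19 and 0.20. Both treated memory-line replicates were below all 3 wild-type replicates in 18 members, against 15.5% of all genes, and above all 3 in 3 members, against 17.9%. The members share their source plants and in part their sequence, so these counts describe the list and are not independent evidence for a difference.

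An unadjusted p under 0.05 in edgeR's quasi-likelihood test was reached by 7 of the 57 members, a share near the 12.1% of all genes tested that reached it. AT3G06465, the noncoding RNA near the centromere of chromosome 3, had 11.8 ± 5.03 CPM in treated wild type and 4.49 ± 0.985 CPM in the treated memory line, a log2 difference of -1.40 (SE 0.38, edgeR adjusted p 0.200). AT2G15555 had 17.8 ± 3.31 and 11.02 ± 0.919 CPM, a log2 difference of -0.69 (SE 0.24, edgeR adjusted p 0.294). For AT2G04655, inside the highest member, the log2 difference was -0.56 (SE 0.23, edgeR adjusted p 0.371). A voom fit of limma on the single libraries, which takes the technical libraries as correlated, tested 45 members and called these 3 genes. It called 4.77% of all genes, where edgeR on the summed replicates called 0.0454%. The voom fit sets the same correlation for every gene, so its calls rest in part on technical libraries as units.

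The other 4 were AT5G41660 with a log2 difference of -1.45, AT5G38190 with -1.43, AT2G04735 with -0.98 and AT5G29560 with 0.98. AT5G29560 encodes a protein related to caleosins, calcium-binding proteins of lipid droplets, and had 22, 34 and 19 counts in treated wild type and 36 and 62 in the treated memory line. AT5G38190, annotated as myosin heavy chain-like, had 38, 21 and 64, and 12 and 18. The edgeR adjusted p of these 4 lay between 0.343 and 0.410. The highest member, AT2G03965, had 54.6 ± 12.2 CPM in treated wild type and 46.4 ± 10.7 CPM in the treated memory line, a difference within the spread of its replicates.

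**Figure D4:**
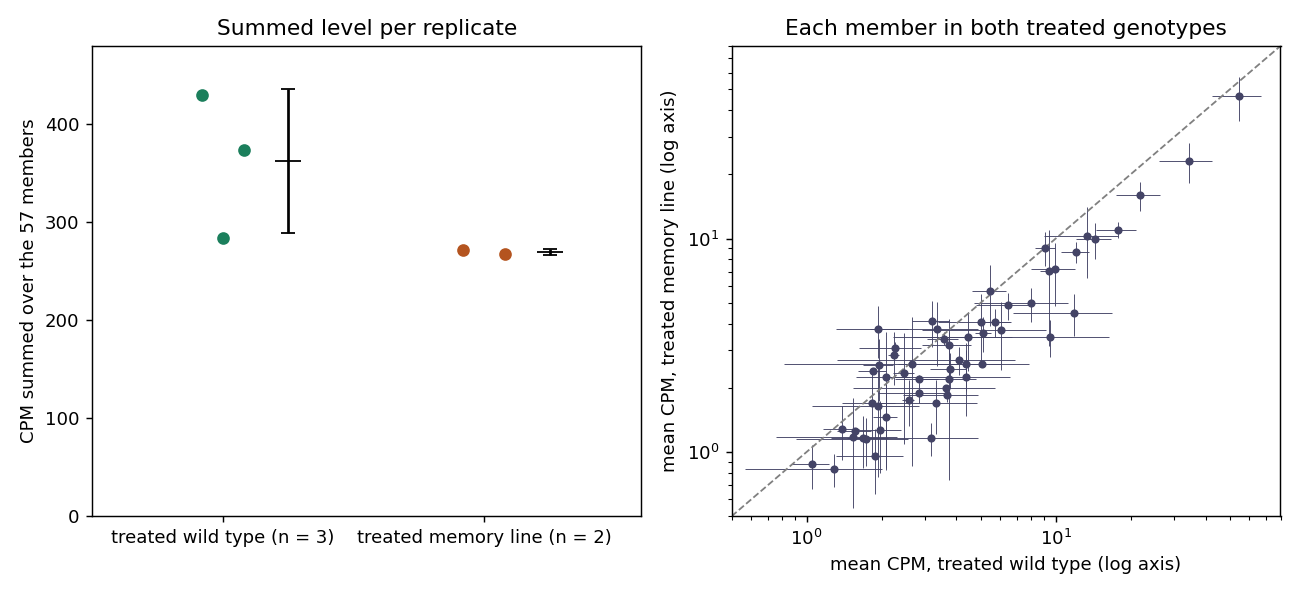
Left, summed level of the 57 members in CPM for each treated replicate, with the mean and SD beside the points: 363 ± 73.6 in 3 wild-type replicates and 270 ± 3.15 in 2 memory-line replicates. Right, mean level of each member in treated wild type (horizontal axis) and in the treated memory line (vertical axis), both log scales, with SD as bars and the dashed line marking equal levels. Of the 57 points, 48 had a fitted difference below 0, and none passed the edgeR test.

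For the contrasts that chose the members, edgeR called all 57 higher with azacytidine in wild type, where 3.02% of all genes were called higher, and 47 of 57 in the memory line, where 0.477% were. Nothing is read from these counts, since the rule fixed the direction. Without untreated memory-line replicate 2, which leaves 1 untreated memory-line sample, 27 members were called in the memory line. No member was called by edgeR or by DESeq2 for a difference between both azacytidine responses, where edgeR called 0.0182% of all genes, and 3 members (5.26%), all with a negative fitted value, had an unadjusted p under 0.05, against 8.58% of all genes. That contrast was chosen after seeing the data, and the comparisons share samples.

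Most of the genes taken as neighbours of the members were not called, though the share that rose was above that of all genes. For each member the nearest tested gene that is no member and does not overlap it was taken. A nearby silent gene that rose enough to meet the rule is a member, so it could not count as a neighbour. Genes too low to be tested were skipped, and gaps ran up to 165435 bases. The number of neighbours that rose is thus limited in part by how they were chosen. This gave 51 different genes at a median gap of 3655 bases. Non-members that overlap a member were left out, among them AT2G05914, which was far higher on azacytidine, as given above. On azacytidine in wild type, 4 of the 51 rose and 2 fell by the edgeR test, where 3.37% of all genes fell. The share that rose was 7.84%, against 3.02% of all genes and 5.14% of the 1811 tested non-members within 3 Mb of a centromere. In the memory line 2 of 51 rose, or 3.92%, against 0.477% and 0.883%. The median log2 change of the 51 neighbours in wild type was 0.02. Leaving out untreated wild-type replicate 2 left 3 of the 6 calls in wild type, and leaving out treated wild-type replicate 1 left 2.

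The neighbours that rose in wild type were themselves low without the drug. AT2G07213, beside the Ulp1-type gene AT2G07240, had 1, 0, 0, 7 and 0 counts untreated and 87, 63, 75, 114 and 143 treated. AT3G29639, beside the nuclease gene AT3G29631, had 2, 6, 0, 3 and 4 counts untreated and 181, 83, 177, 98 and 118 treated. AT3G29639 is also a partial sequence copy of AT3G05845, the member that overlaps AT3G29631, at 95.3% identity over 56.0% of that member's exons. Its reads may thus in part align to a member as well. These 2 rose in both genotypes. AT2G11773 and AT3G25720 were called in wild type, AT3G25720 with at most 34 counts in any treated replicate, a call that was lost without untreated replicate 1, untreated replicate 2 or treated replicate 1 of wild type. PDX1L4, of a family that makes vitamin B6, lies 168 bases from APD3 and fell in wild type, with a log2 change of -1.17 (SE 0.31, edgeR adjusted p 0.040). Its wild-type counts were 151, 120 and 64 without and 54, 40 and 59 with azacytidine. AT4G07455 fell by less, with -0.60. Each of these 2 calls was lost when any of 5 of the 6 wild-type replicates was left out, and that of PDX1L4 also without either treated memory-line replicate, which share the estimate of spread.

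None of the members is among 22 loci listed as silenced by DNA methylation or imprinted. Of these 22, 13 could be tested, and 3 rose with azacytidine in wild type and the same 3 in the memory line, with 3.02% and 0.477% of all genes called higher. SDC, an F-box gene silenced by methylated repeats in its promoter, had 3, 3 and 9 counts in untreated wild type and 10 and 3 in the untreated memory line. It had 108, 114 and 114 counts in treated wild type and 89 and 116 in the treated memory line. SDC thus missed the members' ceiling through its untreated counts, although its treated groups lay wholly above the untreated ones. The others were QQS, a gene for starch and nitrogen partitioning, and MRU1, with log2 changes in wild type of 3.97 and 3.76. In the memory line QQS was no longer called when either treated replicate was left out.

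Of 39 genes of the methylation and silencing machinery, 38 were tested, and 1 rose in wild type and none in the memory line. An unadjusted p under 0.05 was reached by 9 machinery genes in wild type, 7 higher and 2 lower, where 24.0% of all genes reached it. In the memory line it was reached by 4, all lower, where 8.98% of all genes did. The gene called was DMS3, a chromosome-structure protein of RNA-directed DNA methylation, with a log2 change of 0.62 (SE 0.16, edgeR adjusted p 0.035). That call was lost when any of 5 of the 6 wild-type replicates was left out. Of 14 DNA damage response genes, 5 rose in wild type and 1 in the memory line: SMR7, an inhibitor of the cell cycle, rose in both, from 3 to 15 counts in untreated replicates to 33 to 75 in treated ones. PARP2, TSO2, XRI1 and RNR1 rose in wild type, with log2 changes of 1.80, 0.79, 0.72 and 0.57. An unadjusted p under 0.05 was reached by 12 of the 14 in wild type and by 7 in the memory line, all higher. With single replicates left out, 2 to 7 of the list were called higher in wild type and 0 to 3 in the memory line. SMR7 was not called in the memory line without untreated replicate 2 or treated replicate 1, and PARP2 was called in wild type throughout. TSO2, XRI1 and RNR1 each lost the call in 5 to 7 of the fits that leave out 1 replicate.

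Few markers of other cell types were called. Of 20 pollen and sperm genes found in the annotation, 9 were tested and none was called by edgeR, 1 of them with an unadjusted p under 0.05 in wild type, and their summed level was 30.3 to 37.9 CPM in untreated and 26.5 to 37.4 CPM in treated replicates. VGD1, VGDH1, PPME1, GEX2, AGL104 and ANX2 of that list were at 0 in every replicate. None of the 6 seed markers tested was called either, with 1 at an unadjusted p under 0.05 in wild type and 2 in the memory line, and LEC1, AGL36 and ZOU were at 0 throughout. Of the flower list, SEP3 rose in wild type, with 14, 19 and 7 counts untreated and 52, 44 and 74 treated. It was not called in the memory line, with 64 and 28 counts untreated and 53 and 35 treated. The 6 leaf markers and all 10 root markers were detected, and the label gives whole plants with root. CASP1 and CASP2 of the root list were lower on azacytidine in wild type (CASP1 not without treated wild-type replicate 1). IRT1 was higher in the memory line, a call lost in 5 of the fits that leave out 1 replicate. Its counts in the memory line were 73 and 56 without and 1044 and 915 with azacytidine. In wild type they were 1093, 917 and 1131 without and 1371, 652 and 402 with it. Of the 9 root markers tested, 5 had an unadjusted p under 0.05 in each genotype. They were 2 higher and 3 lower in wild type, and 1 higher and 4 lower in the memory line. Over all genes tested, edgeR gave an unadjusted p under 0.05 for 24.0% in wild type and 8.98% in the memory line. It called 3.02% higher and 3.37% lower in wild type, and 0.477% higher in the memory line. The part of the marker shifts in the members' levels was not tested.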

How the data were processed

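The authors deposited raw counts of reads per gene for 26 libraries, as whole numbers per the file headers and values, with 5 summary entries per library, which were dropped since they stand for no gene. Per the submitters' processing notes the genome was TAIR10 and DESeq2 was used, with no version or role given. Neither aligner nor counter is given in the sources used here. Libraries were TruSeq version 2 with 100-base reads, per the labels' protocols, which keep no strand information.

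Counts of technical libraries were summed per biological replicate, after a check of technical libraries against each other over genes with at least 50 counts (chi-square per degree of freedom 1.25 to 2.20). The members and gene lists were chosen with earlier results of these data known. Besides the stated thresholds, 1 gene was left out in advance, and it and the start windows of 1 pair of copies are not reported here. Genes were filtered with filterByExpr (minimum count 10, minimum total 15) by group. All 4 groups entered 1 edgeR 4.0.16 quasi-likelihood fit in R 4.3.3 with TMM factors, robust dispersions and no block; 22031 genes were tested, with a common biological coefficient of variation of 0.166. Levels are CPM with TMM-scaled library sizes. The fit was also run on simulated counts in which only the treated memory line was changed. The outcome is not given, and no result here rests on it. DESeq2 1.42.0, limma 3.58.1, other filters, a replicate block and fits that leave out 1 replicate were alternatives.

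Names, positions and sequences come from RefSeq's TAIR10.1 annotation and genome, in which 32548 of the 33977 identifiers and all 57 members were found; the count files hold no coordinates. Copies were searched with blastn 2.17.0. Named genes were the 12 members with the highest treated mean, members within 50 kb of another, those of a family with several members, those at each threshold, members called between the treated genotypes, and up to 4 called genes of each list; the 7 members with an unadjusted p under 0.05, the members with a symbol, the transposon proteins and the neighbours were added after their values were seen. Intervals and floors cover counting error only.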

Additional observations from a re-analysis of the deposited data

How the results depend on the processing

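The number of members was 31 with no untreated count allowed and 89 with a floor of 5 counts in treated replicates. It was 57 to 62 when 1 replicate was left out of the rule, which can only keep or add members. The share near a centromere was 49.1% within 2 Mb. Within 3 Mb it was 65.3% without the members mostly under opposite-strand exons, against 70.2% with them. Between the treated genotypes no member was called under any edgeR or DESeq2 setting, and limma's voom on the 26 libraries called 3. The median log2 difference over members kept its sign throughout, from -0.55 to -0.34 with 1 replicate left out, -0.53 with the floor set in treated wild type only, -0.40 with it set in the treated memory line only and -0.36 over the 28 members without a copy (the last 3 chosen after seeing the data). The labels share replicate numbers but do not say that they pair samples, and not all pairs deviated together: correlations of same-numbered untreated and treated replicates were 0.17, 0.00 and -0.01 in wild type and -0.15 in the memory line, and those of treated wild-type with treated memory-line replicates 0.16 and 0.15. With the replicate number as a block the median was -0.39 and 0 members were called. With azacytidine in the memory line, a contrast whose direction the rule fixed, 41 members were called with the block and 49 with crossed memory-line numbers. With 1 replicate left out, that contrast called 27 to 47 members, wild type called 57, neighbours called in wild type were 2 to 7, machinery genes called higher in wild type were 0 to 3, and DNA damage genes called higher were 2 to 7 in wild type and 0 to 3 in the memory line. DESeq2 called 3 DNA damage genes in the memory line. The cause of these shifts was not tested, apart from the smaller number of samples in fits that leave a replicate out. Of 497 refits for single named genes, 52 lost the call, 3 gained one and 0 changed sign. Levels of a few counts, and the 2 replicates of each memory-line group, limit what could be called.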

Other observations

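The mirrored rule, at least 10 counts in each untreated replicate and at most 3 in each treated one, was met by 2 genes, which were chosen after their values were seen. JAZ8, a repressor of jasmonate signalling, had 34, 64 and 22 counts in untreated wild type and 33 and 12 in the untreated memory line. It had 3, 2 and 0 counts in treated wild type and 3 and 1 in the treated memory line. AT4G08985 had 36, 40, 23, 41 and 30 counts untreated and 0, 2, 0, 3 and 1 treated. The number of genes at 3 counts or fewer in all replicates of an arm was 10180 without and 10057 with azacytidine.

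Among the treated replicates, wild-type replicates 1 and 3 were the highest of the 5 in 25 and 20 members, and wild-type replicate 2 in 0. The lowest value of the 5 fell in memory-line replicate 1 for 23 members and in memory-line replicate 2 for 22.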
